A study of Arabidopsis thaliana with 18 samples.

Results

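The comparison described here sets 6 arrays of the highest title serial numbers, called the third block, against 6 arrays of the middle serial numbers, called the second block, out of 18 arrays in all. RNA came from Arabidopsis thaliana Cvi-1, an accession of the Cape Verde Islands, and each sample was hybridised to 1 Affymetrix ATH1 array. Both blocks hold the same treatments and the same title replicate numbers 1, 2 and 3. The third block consists of arrays 34, 35 and 36 from plants given 0.30 mM salicylic acid (SA) in 0.02% silwet and arrays 25, 26 and 27 given 0.02% silwet alone. The second block consists of arrays 31, 32 and 33 from SA and arrays 22, 23 and 24 from silwet. Within each of these 4 groups of 3 the arrays carry replicates 1, 2 and 3 in that order. Silwet is an organosilicone surfactant that helps a solution spread over and enter leaves, and it was present in every sample. No label says what separates the serial blocks, and no tissue, age or harvest time is given in the sources used here. Each title also carries an unexplained identifier that is higher in the third block than in the second for every treatment and replicate number, so identifier order and block cannot be told apart. No label says that the arrays of a group came from separate plants, so every p-value rests on the variation among these arrays, which could be technical.

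Of the first block, which enters the values below only as a further level, 2 arrays stood against their labels. UGT76B1, a glycosyltransferase that conjugates SA, was high in array 20, labelled silwet (1540), and low in array 29, labelled SA (41.2), while it was 1240 and 1550 in the other first-block SA arrays and 39.3 and 77.6 in the other first-block silwet arrays. In the third block UGT76B1 was at 12.3, 16.4 and 10.3 in SA and 21.6, 18.6 and 10.6 in silwet. In the second block it was at 19.4, 33.2 and 54.0 in SA and 33.0, 76.8 and 13.3 in silwet. The marker was therefore low under both treatments in all 12 arrays compared here, and it gives no check of their treatment labels. Median signal ranged from 31.7 to 37.9 over the 12 arrays. Array 34 had the lowest median, 31.7, and stood apart on the first principal component (34.1% of the variance) with a score of 0.49, where the other 11 arrays ran from -0.20 to 0.24. The leaf genes LHCB4.1, an antenna protein of photosystem II, and RCA, Rubisco activase, had signals of 2430 to 3490 and 1760 to 2990 in these arrays. The root-hair expansin genes EXPA7 and EXPA18 reached at most 16.1 and 16.3, and OLEO3 of seed oil bodies at most 17.5, all of them too dim to be tested.

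Chloroplasts keep a small genome that encodes core subunits of both photosystems, the cytochrome b6f complex, the ATP synthase, the NADH dehydrogenase-like complex of cyclic electron flow, a bacterial-type RNA polymerase and part of the plastid ribosome. The remaining subunits of the same complexes, among them the antenna proteins, are encoded in the nucleus. Many chloroplast genes are transcribed as multi-gene units that are then processed and trimmed, so that steady-state levels of neighbouring genes depend on transcription and RNA stability together. SA is a hormone of plant defence that induces a large set of nuclear genes, and its conjugating enzymes and glutaredoxins are common readouts of treatment.

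Averaged over both treatments, the third block did not differ from the second at any probe set past the threshold. Limma, fitted over 12 arrays with terms for block, treatment and replicate number, called 0 of 13648 tested probe sets (0%) at an adjusted p under 0.05, and the smallest adjusted p was 0.166. At an unadjusted p under 0.05 there were 1250 probe sets (9.16%), of which 560 (4.1%) were higher and 690 (5.06%) lower in the third block. The log2 difference had a median SE of 0.13, and for 97.4% of probe sets the 95% interval excluded changes beyond 2-fold (79.7% for changes beyond 1.5-fold). In all 6 pairs of arrays matched by treatment and replicate number, 383 probe sets (2.81%) were higher in the third block and 385 (2.82%) were lower. The 6 third-block signals all lay above the 6 second-block signals for 17 probe sets (0.125%) and all below them for 17 (0.125%). Without replicate 1 limma called 9 probe sets, 3 of them higher. It called 1 without array 27, 1 without array 36 and 0 without array 34.

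The 12 genes named as higher in all 6 pairs, in order of p, were none of them called (limma adjusted p from 0.166 to 0.433 over these and the 12 lower genes below). The smallest p belonged to AT1G73600, which the annotation used here does not name. Its signal in the third block was 1230, 556 and 653 in SA and 1320, 545 and 696 in silwet, against 471, 309 and 520 in SA and 671, 305 and 484 in silwet of the second block. Every pair was higher in the third block, but the blocks overlapped. The log2 difference of AT1G73600 was 0.82 (SE 0.12), and it was 0.86 in SA and 0.78 in silwet. Its first-block signals ran from 114 to 750. AT5G25280 in the third block had signals of 369, 250 and 333 in SA and 263, 195 and 265 in silwet, against 204, 156 and 145 in SA and 227, 153 and 144 in silwet of the second block. Its log2 difference was 0.70 (SE 0.12), and the first block, at 180 to 357, overlapped both.

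Chloroplast genes took 3 of these 12 places, all of them subunits of the NADH dehydrogenase-like complex. For ndhE the signal was 172, 309 and 527 in SA and 229, 173 and 452 in silwet of the third block, against 95.8, 65.5 and 384 in SA and 89.8, 85.6 and 375 in silwet of the second. Replicate 3 was the highest in each of the 4 groups, and each third-block array exceeded its second-block partner. The log2 difference of ndhE was 1.03 (SE 0.21), with 1.18 in SA and 0.88 in silwet. It was 0.71 (SE 0.16) for ndhI and 0.90 (SE 0.23) for ndhA, and in both genes the SA difference (1.09 and 1.47) was larger than the silwet difference (0.33 for each). The other 7 higher genes were AT5G59080 (0.66), AT2G16340 (0.57), AT1G62770 (0.54), AT2G36885 (0.48), AT5G07580 (0.45), AT1G25275 (0.44) and AT2G37480 (0.34), given as log2 differences. AT2G37480 had signals of 277, 273 and 269 in SA and 230, 238 and 271 in silwet of the third block, against 200, 217 and 236 in SA and 172, 198 and 211 in silwet of the second. AT1G25275 had first-block signals of 1040 to 1740, against 745 to 1380 in the third block.

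**Figure D1:**
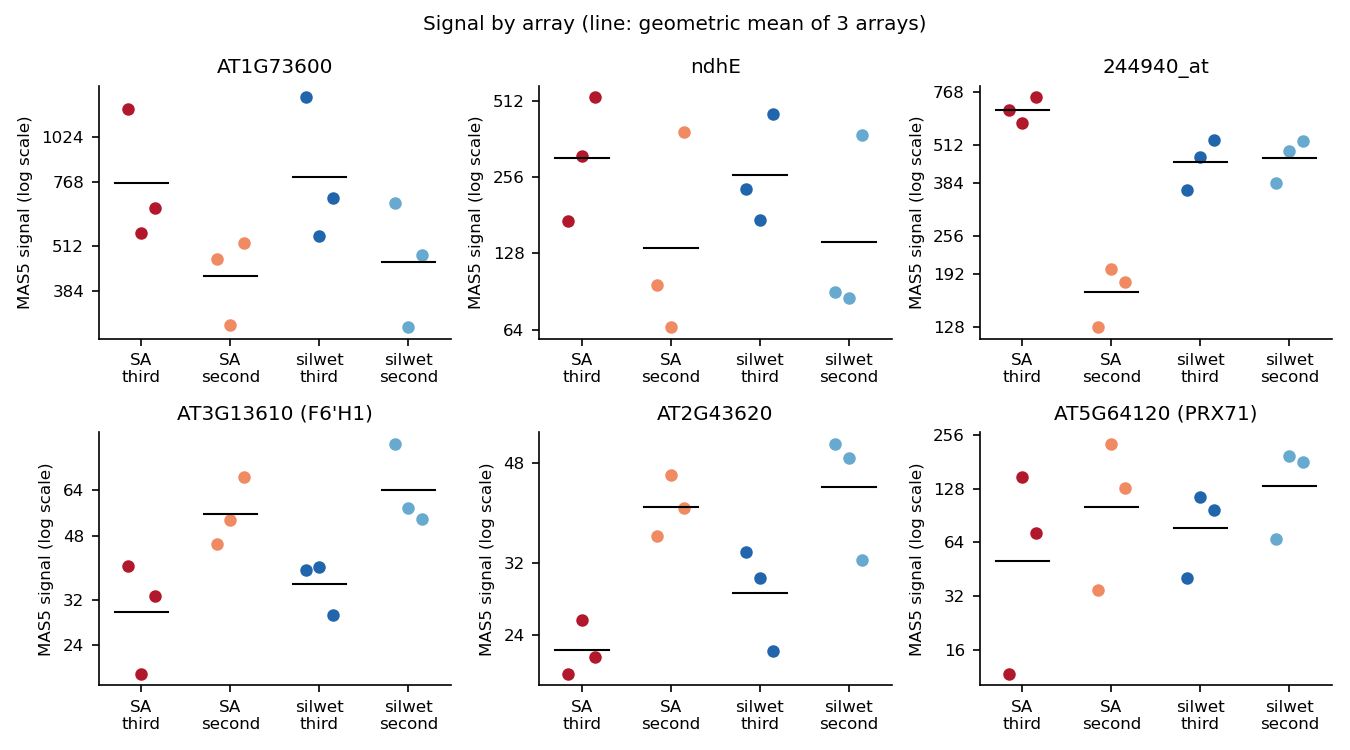
Deposited MAS5 signal (log axis) of 6 probe sets in the 4 groups of 3 arrays, the third block left of the second within SA and within silwet, with points for arrays in replicate order and lines for the geometric mean. AT1G73600 and ndhE were higher in the third block in every pair, AT3G13610, AT2G43620 and AT5G64120 were lower in every pair, and 244940_at differed between the blocks in SA and not beyond its spread in silwet.

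Of the 12 genes lower in all 6 pairs, none was called. AT3G13610, whose synonym is F6'H1, encodes the hydroxylase that commits phenylpropanoids to the coumarin scopoletin. Its signal was 39.6, 20.1 and 32.7 in SA and 38.5, 39.4 and 29.0 in silwet of the third block, against 45.5, 52.9 and 69.4 in SA and 85.5, 57.2 and 53.2 in silwet of the second. The 2 blocks did not overlap, and the log2 difference of AT3G13610 was -0.87 (SE 0.18), nearly the same in SA (-0.89) and silwet (-0.85). In the first block it was at 225 or more in SA arrays 28 and 30 and at 236 in silwet array 20, and between 1.74 and 42.5 in the other 3 arrays, so it was high in the same 3 first-block arrays as UGT76B1. AT5G64120, peroxidase 71 (PRX71), a class of enzyme that acts on the cell wall, had a log2 difference of -0.90 (SE 0.23). Its signals were 11.8, 148 and 71.9 in SA and 40.4, 115 and 97.8 in silwet of the third block, against 34.6, 228 and 130 in SA and 67.3, 196 and 180 in silwet of the second. Replicate 1 was lowest in each group, and the blocks overlapped.

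AT2G43620 had signals of 20.5, 25.5 and 21.9 in SA and 33.5, 30.2 and 22.5 in silwet of the third block, against 35.8 to 45.7 in SA and 51.9, 49.1 and 32.4 in silwet of the second. Its log2 difference was -0.73 (SE 0.14), and its first-block signals, 125 to 460, all lay above those of the other blocks. The remaining lower genes were AT1G52950 (log2 difference -0.77), ATSBT5.2 of the subtilisin-like proteases (-0.74), AT3G21300 (-0.63), AT2G34357 (-0.60), AT1G13160 (-0.56), AT4G16660 (-0.55), the glutamate receptor-like channel gene GLR1.4 (-0.49), AT1G08220 (-0.43) and ATERDJ2B, a J-domain protein of the endoplasmic reticulum (-0.40). Besides AT3G13610, the blocks did not overlap in AT2G34357, at 36.4 to 71.5 against 71.8 to 89.5, and in AT1G13160, at 27.3 to 46.5 against 47.5 to 72.2. Both are among the 17 lower probe sets without overlap (0.125% of those tested).

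Within SA, limma called 7 of 13648 probe sets (0.0513%), all of them higher in the third block. This contrast came from a fit of all 12 arrays as 4 groups with replicate number. Silwet arrays therefore entered its estimate of the spread. Of these 7, 5 are genes of the chloroplast genome and the other 2, 244940_at and 244939_at, have no single gene in the annotation used here. At an unadjusted p under 0.05 there were 581 higher (4.26%) and 898 lower (6.58%) probe sets in SA. Probe set 244940_at had 670, 607 and 737 in the third block of SA, against 128, 200 and 181 in the second. Its silwet signals were 365, 469 and 531 in the third block, against 385, 490 and 529 in the second. The second-block SA arrays were thus the low ones, and the 3 third-block SA arrays were above all others. The log2 difference of 244940_at was 2.01 (SE 0.14, limma adjusted p = 0.000262) in SA and -0.04 (SE 0.14) in silwet. Probe set 244939_at had 167, 165 and 218 in the third block of SA, against 25.8, 58.0 and 46.8 in the second, and its log2 difference was 2.14 (SE 0.19, limma adjusted p = 0.00142). In silwet 244939_at had 83.2, 143 and 140 in the third block, against 92.3, 142 and 145 in the second.

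The 5 chloroplast genes called in SA belong to different complexes. atpH, which encodes the ring-forming subunit of the ATP synthase, rose to 417, 831 and 1500 in the third block of SA, against 78.5, 68.1 and 326 in the second (log2 difference 2.74, SE 0.30, limma adjusted p = 0.00632). In silwet atpH had 181, 289 and 1370 in the third block, against 236, 211 and 1450 in the second, a log2 difference of 0.00. psbM, a small subunit of photosystem II, had 2020, 2500 and 2930 in the third block of SA, against 1190, 1520 and 1980 in the second (log2 difference 0.68, SE 0.08, limma adjusted p = 0.0104). The other 3 were called at the same limma adjusted p of 0.0468. For ndhG the SA signals were 57.7, 212 and 426 in the third block, against 25.0, 19.2 and 95.5 in the second, a log2 difference of 2.28 (SE 0.32). accD, the plastid-encoded subunit of acetyl-CoA carboxylase in fatty acid synthesis, had 338, 776 and 797 in the third block of SA, against 77.7, 49.8 and 301 in the second, a log2 difference of 2.50 (SE 0.36). clpP, a protease subunit, had 1190, 1450 and 1970 in the third block of SA, against 530, 320 and 1020 in the second, a log2 difference of 1.43 (SE 0.21). In atpH, psbM, ndhG, accD and clpP replicate 3 was the highest of each SA block.

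Most of these calls, but not that of 244940_at, depended on single arrays or settings. Of 21 alternative settings, 244940_at was called in SA in all 21, 244939_at in 19, atpH in 17, psbM in 13, ndhG in 7, clpP in 5 and accD in 4. The count of SA calls fell to 2 without array 33, to 3 without array 35 and to 4 without array 34 or without any one of silwet arrays 22, 23, 24, 25 and 26, and it was 20 without array 36. With the arrays median-centred it was 19, and with no term for the replicate number it was 1.

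The chloroplast genome as a list lay to the higher side in SA. It has 69 genes with a probe set of their own, of which 65 passed the filter on dim signal, and the 4 others were not tested. Averaged over both treatments their median log2 difference was 0.52, where that of all tested probe sets was -0.013. At an unadjusted p under 0.05, 43 of the 65 were higher and 0 lower (4.1% and 5.06% over all tested probe sets), and 17 were higher in all 6 pairs (2.81% over all), but limma called 0 of them. Within SA the median was 0.97, with 50 of 65 higher and 0 lower at an unadjusted p under 0.05, and 5 called. Over all tested probe sets 4.26% were higher and 6.58% lower at that level in SA, and 0.0513% were called. Within silwet the median was 0.09, with 2 of 65 higher at an unadjusted p under 0.05 and 0 called. Over all tested probe sets 2.53% passed that level in silwet, with 1.17% higher and 1.36% lower. Genes of 1 organelle genome are not independent of each other, so these counts describe the list and carry no test.

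**Figure D2:**
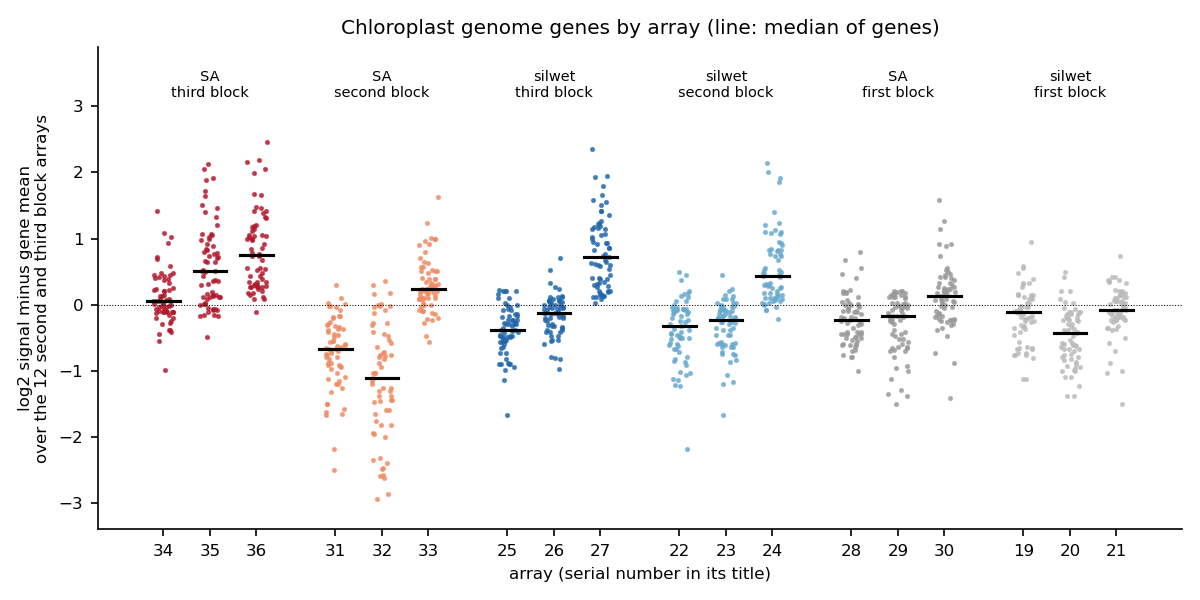
Log2 signal of each of the 65 tested chloroplast genome genes minus that gene's mean over the 12 second-block and third-block arrays (y axis), by array (x axis, serial number in the title), with lines for the median of genes. The medians of the third-block SA arrays were 0.05, 0.51 and 0.75, against -0.67, -1.11 and 0.24 in the second-block SA arrays, and those of silwet were -0.38, -0.13 and 0.72 in the third block, against -0.32, -0.24 and 0.43 in the second.

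By array, the chloroplast genes stood at medians of 0.05, 0.51 and 0.75 in the third block of SA (arrays 34, 35 and 36), against -0.67, -1.11 and 0.24 in the second (arrays 31, 32 and 33), on a log2 scale centred on each gene's mean over the 12 arrays. In silwet they stood at -0.38, -0.13 and 0.72 in the third block, against -0.32, -0.24 and 0.43 in the second. The lowest values were those of SA arrays 31 and 32, and replicate 3 was the highest of each group. Taken pair by pair, the median difference was 0.81, 1.61 and 0.43 for SA replicates 1, 2 and 3, with 58, 59 and 59 of the 65 genes higher in the third block. For silwet it was -0.02, 0.07 and 0.18, with 29, 41 and 60 of 65 genes higher. The first-block arrays stood at -0.23, -0.18 and 0.13 in those labelled SA and at -0.12, -0.43 and -0.09 in those labelled silwet. The SA median ranged from 0.53 to 1.22 over the alternative settings. In bulk RNA a change in the share of cells that hold many chloroplasts and a change in RNA per cell cannot be told apart.

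The block difference in SA minus that in silwet had a median of 0.77 over the 65 genes. Of these, 36 were higher at an unadjusted p under 0.05 and 0 were called, where over all tested probe sets 3.33% passed that level, with 1.91% higher and 1.41% lower. Over all probe sets limma called 2 differences between treatments (0.0147%), those of 244940_at (2.05, SE 0.20, limma adjusted p = 0.00783) and 244939_at (2.21, SE 0.27, limma adjusted p = 0.0344). For atpH that difference was 2.74 (SE 0.42), which did not pass (limma adjusted p = 0.173). A block effect that differs between SA and silwet thus passed the test for 2 probe sets without a single gene in the annotation. Whether these lie in the chloroplast genome could not be told from it. On simulated data with changes made in SA only, this test found 22% of those at 2-fold, 85.5% at 4-fold and 0% at 1.5-fold, so a miss does not show that a gene's block effect is alike in both treatments. The interaction of 244940_at held in 13 and that of 244939_at in 5 of 21 alternative settings. With any 1 of arrays 22, 27, 31, 33 and 34 left out the count of interaction calls was 1, and with any 1 of arrays 23, 24, 25 and 26 left out it was 0. Without array 36 it was 2, of which atpH was one (3.12, limma adjusted p = 0.0311).

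**Figure D3:**
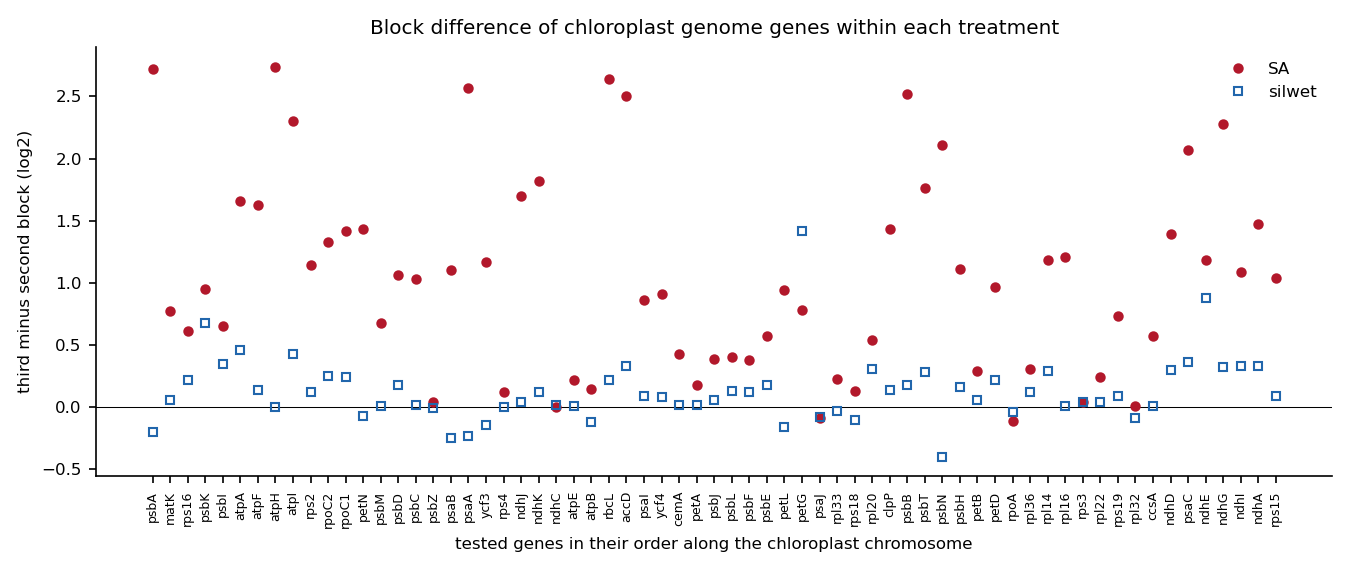
Log2 difference between the third and the second block within SA (filled circles) and within silwet (open squares) for the 65 tested chloroplast genes, in their order along the chloroplast chromosome. SA differences reached 2.74 (atpH) and silwet differences 1.42 (petG), and genes with SA differences near 0, such as ndhC, psbZ and rps3, stood among neighbours with larger ones.

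Members of the complexes beyond the 2 of smallest p were chosen for description after their values were seen. Of the complexes, the ATP synthase and the NADH dehydrogenase-like complex had the highest medians in SA. The 6 ATP synthase genes had a median log2 difference of 1.65 in SA and 0.08 in silwet. Their SA differences fell into 2 sets, with atpA (1.66), atpF (1.63), atpH (2.74) and atpI (2.30) in 1 cluster of the chromosome and atpB (0.15) and atpE (0.22), which lie side by side elsewhere, in the other. Signals of atpI were 19.4, 87.3 and 105 in the third block of SA, against 4.12, 9.51 and 38.2 in the second (limma adjusted p = 0.0575). Those of atpB were 2920, 3240 and 3570 in the third block of SA, against 2270, 3190 and 3370 in the second. Signals of atpI were thus far lower than those of atpB. The part of signal level in the size of the chloroplast gene differences was not tested. The 8 tested genes of the NADH dehydrogenase-like complex had medians of 1.43 in SA and 0.31 in silwet. Of the 8, 6 were higher in all 6 pairs (2.81% over all tested probe sets). The other 2 were ndhJ, at 1.70 in SA and 0.04 in silwet, and ndhC, at 0.00 in SA and 0.02 in silwet. ndhK, which lies between them on the chromosome, was at 1.82 in SA.

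The 15 photosystem II genes had a median log2 difference of 0.95 in SA and 0.13 in silwet. psbA, the D1 reaction centre protein with rapid turnover in light, had 307, 500 and 138 in the third block of SA, against 40.6, 18.6 and 99.4 in the second. The SA difference of psbA, 2.72, missed the threshold (limma adjusted p = 0.271). psbB (2.52), psbN (2.11), psbT (1.76) and psbH (1.11) follow each other on the chromosome and differed in SA by more than psbJ (0.39), psbL (0.40), psbF (0.38) and psbE (0.57), another run of neighbours. After psbH come petB and petD of the cytochrome b6f group, which differed in SA by 0.29 and 0.97. psbZ had the lowest SA difference of the 15, at 0.04, and was at -0.01 in silwet. The photosystem I group of 7 genes, which also counts ycf3 and ycf4, not subunits of the complex, had medians of 1.10 in SA and -0.08 in silwet. psaC, which carries the terminal iron-sulfur clusters, had 219, 679 and 571 in the third block of SA, against 72.4, 58.6 and 273 in the second, and it was higher in all 6 pairs (limma adjusted p = 0.0695 in SA). psaA differed by 2.57 in SA and -0.23 in silwet, and psaJ by -0.09 and -0.08.

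The cytochrome b6f group of 7 genes had medians of 0.78 in SA and 0.02 in silwet. It also counts ccsA, which is not a subunit of the complex. The group holds the gene with the largest silwet difference of the 65 tested chloroplast genes. petG had 49.6, 85.5 and 175 in the third block of silwet, against 25.5, 18.6 and 82.4 in the second, which is 1.42 on the log2 scale (SE 0.52, limma adjusted p = 1). In SA petG had 121, 42.3 and 112 in the third block, against 52.7, 11.6 and 184 in the second, so replicate 3 went the other way. petD differed by 0.97 in SA and 0.22 in silwet and was higher in all 6 pairs. rbcL, the large subunit of Rubisco, had 155, 388 and 260 in the third block of SA, against 54.4, 13.5 and 87.5 in the second, 2.64 on the log2 scale (limma adjusted p = 0.152). In silwet rbcL had 75.1, 74.3 and 275 in the third block, against 76.5, 56.7 and 222 in the second.

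Genes of plastid gene expression ranged from near 0 to above 1 in SA. The 14 ribosomal protein genes had a median log2 difference of 0.42 in SA and 0.06 in silwet. rps2 differed by 1.14 in SA (limma adjusted p = 0.0559) and rpl16 by 1.21, while rps3 (0.04), rpl32 (0.01), rps4 (0.12) and rps18 (0.13) differed by little. For rps4 the signal was 2670, 2920 and 3490 in the third block of SA, against 2550, 2870 and 2880 in the second. The 3 tested RNA polymerase genes split in the same way, with rpoC1 at 1.42 and rpoC2 at 1.33 in SA, which lie next to rps2 and the atp cluster, and rpoA at -0.11. The rpoA signal was 658, 608 and 819 in the third block of SA, against 833, 872 and 562 in the second.

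**Figure D4:**
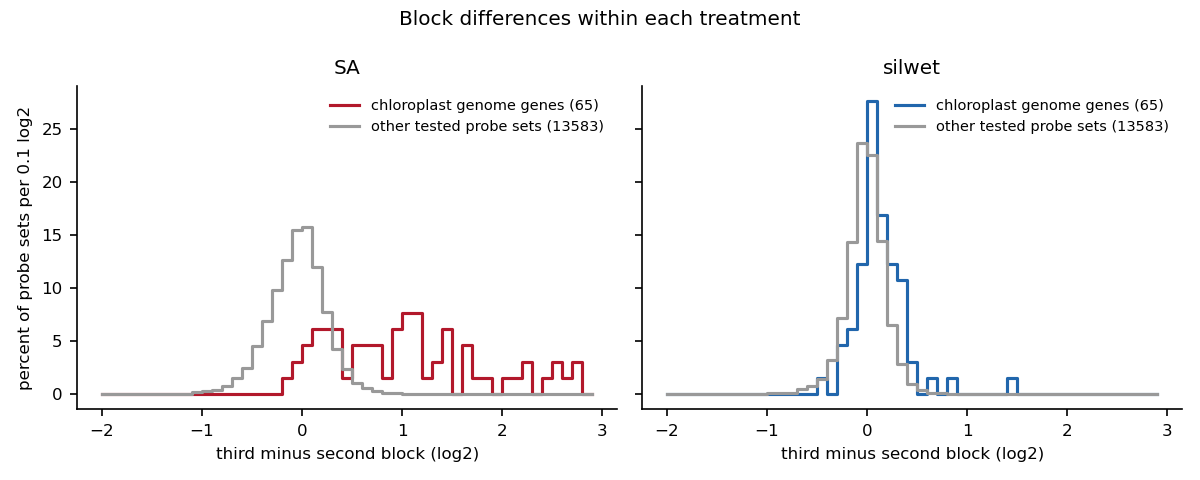
Distribution of the log2 difference between the third and the second block (x axis) within SA and within silwet, as the percent of probe sets per bin of width 0.1 (y axis), for the 65 chloroplast genome genes and the other 13583 tested probe sets. The other probe sets include 244940_at and 244939_at, which have no single gene in the annotation. In SA the chloroplast genes spread from -0.11 to 2.74 with a median of 0.97, and in silwet most lay with the other probe sets around a median of 0.09.

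Genes of the nucleus with related functions and genes of the mitochondrial genome had medians near 0. The 7 nuclear photosystem and antenna genes had median log2 differences of -0.03 in SA and 0.00 in silwet, and the 7 nuclear genes of the Calvin cycle and chlorophyll synthesis 0.00 in both, with limma calling 0 of either list. In SA 2 of the 7 Calvin cycle and chlorophyll genes were lower at an unadjusted p under 0.05 (6.58% over all) and 0 higher. Of the photosystem and antenna genes 0 passed that level in SA. Within these lists LHCB4.3 differed by 0.51 over both treatments, LHCB4.2 by 0.21, RCA by -0.17 and HEMA2, a glutamyl-tRNA reductase of chlorophyll synthesis, by -0.56. The 7 tested genes of the mitochondrial genome (of 16 with a probe set) had medians of 0.10 in SA and -0.14 in silwet. In SA 2 of these 7 were higher at an unadjusted p under 0.05 (4.26% over all) and 0 lower. Their widest difference was that of ccb382, a gene of cytochrome c assembly, with 95.2, 315 and 456 in the third block of SA, against 41.3, 48.6 and 98.3 in the second. That SA difference of 2.04 missed the threshold (limma adjusted p = 0.0554), and nad4 of respiratory complex I differed by 0.64 in SA.

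Array quality was compared between the blocks by a two-sided exact permutation test over the 6 pairs. The smallest p it allows is 0.03125 before adjustment over 6 measures, so a single differing measure could not pass an adjusted 0.05, and the values below are given as a description. Median signal was 35.6 ± 2.12 in the third block and 36.5 ± 0.945 in the second (SD, n = 6; exact permutation p = 0.156, adjusted 0.516). Signals below 16 made up 36.0% ± 1.89 of probe sets in the third block and 35.7% ± 1.5 in the second (exact permutation p = 0.344, adjusted 0.516). Ubiquitin's 3' to 5' control ratio, which rises as RNA is degraded, was 3.15 ± 0.454 in the third block and 3.15 ± 0.361 in the second (exact permutation p = 1), and that of GAPDH was 1.05 ± 0.0926 in the third and 1.05 ± 0.124 in the second (exact permutation p = 1). The actin ratio was 0.791 ± 0.160 in the third block and 0.926 ± 0.206 in the second (exact permutation p = 0.312, adjusted 0.516), and the bioB hybridisation control 34.0 ± 8.69 in the third and 37.6 ± 9.35 in the second (exact permutation p = 0.344, adjusted 0.516). Beside the chloroplast genes in SA, the ubiquitin ratio was 3.71, 2.54 and 2.96 in the third block, against 3.64, 3.42 and 2.59 in the second. The part of RNA quality in the chloroplast differences was not tested.

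**Figure D5:**
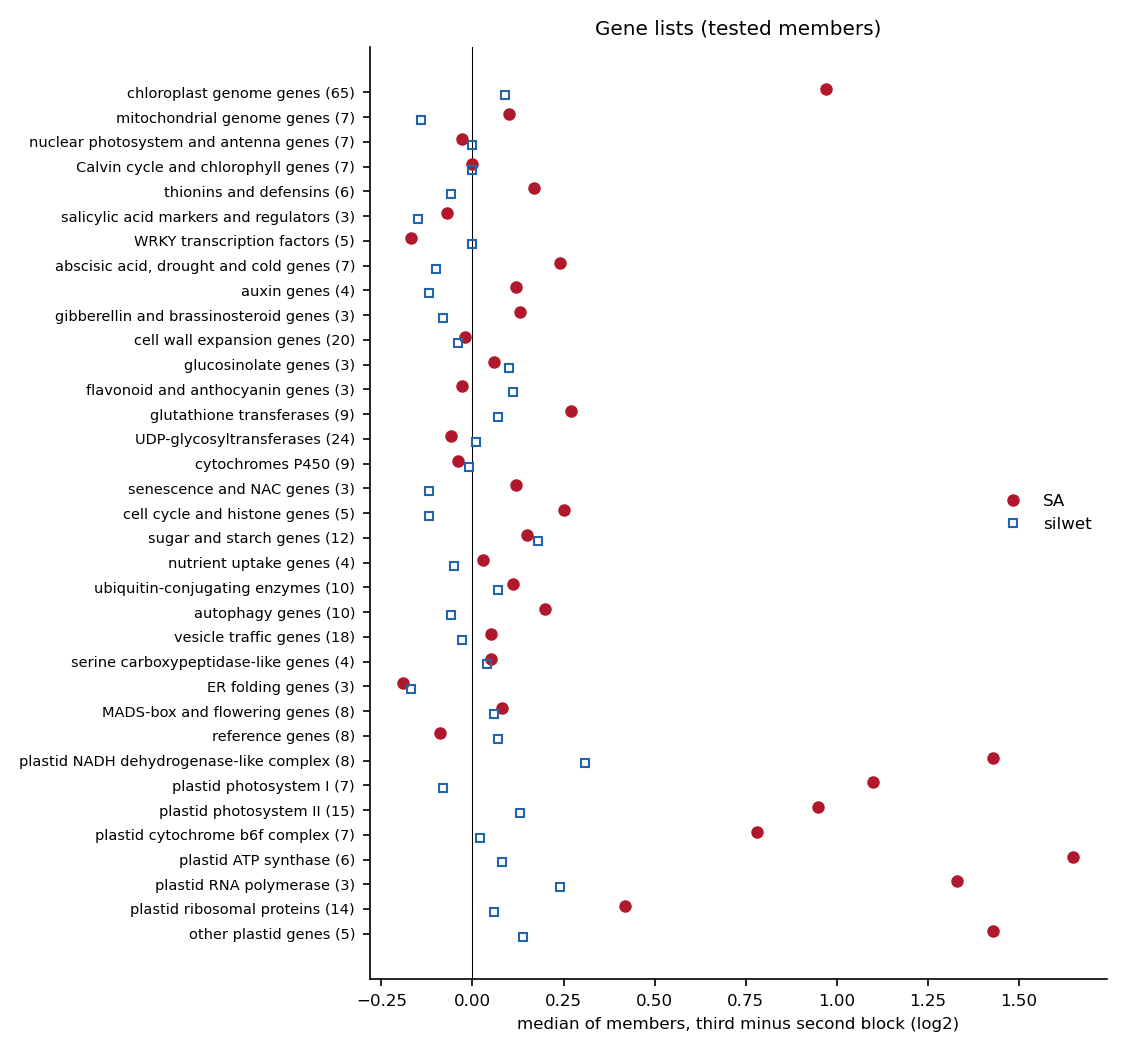
Median log2 difference between the third and the second block (x axis) of the tested members of each list with at least 3 of them (number in parentheses), within SA (filled circles) and within silwet (open squares). The chloroplast lists lie to the right in SA, between 0.42 and 1.65, and no other list has a median beyond 0.27 in SA or 0.18 in silwet on either side of 0.

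None of the nuclear lists held a call in either treatment. Of hormone lists, the 7 tested genes of abscisic acid, drought and cold had a median log2 difference over both treatments of 0.18, with 2 of 7 higher and 0 lower at an unadjusted p under 0.05, where over all tested probe sets 4.1% were higher and 5.06% lower at that level. By pair, the list median was 0.60 in SA replicate 1, which holds array 34, against -0.21 to 0.23 in the other pairs. COR27, a cold-regulated gene, had 842, 706 and 783 in SA and 816, 641 and 688 in silwet of the third block, against 653, 725 and 670 in SA and 647, 547 and 512 in silwet of the second (log2 difference 0.26). The drought-induced gene DI21 differed by 0.49, mostly in SA (0.90, against 0.08 in silwet), and COR15A by -0.11. Auxin genes (4 tested) had a median of 0.00. The auxin-conjugating enzyme gene GH3.3 differed by -1.12, with 4.26, 26.0 and 47.7 in the third block of SA, against 41.9, 64.7 and 48.7 in the second. IAA29 differed by 0.14. The gibberellin receptor genes GID1B and GID1C differed by -0.42 and 0.37, and GID1B was lower in all 6 pairs, at 35.7 to 58.0 in the third block, against 46.6 to 75.2 in the second. EIN3 of ethylene signalling differed by 0.12 and ARR15 of cytokinin response by 0.07.

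The 3 tested SA markers and regulators had a median of -0.11. UGT76B1 differed by -1.18 (SE 0.34) and was lower in all 6 pairs (limma adjusted p = 0.459). Most of its third-block signals and some of its second-block ones lay under 20.1, the signal at which the filter on dim probe sets was set. GRX480, a glutaredoxin that binds TGA factors, differed by -0.11, with 91.4 to 159 in the third block, against 68.1 to 201 in the second. SAG101, a partner of the defence regulator EDS1, differed by -0.04. The 5 WRKY transcription factors had a median of -0.12, with WRKY47 at -0.21, WRKY20 at -0.12 and WRKY53 at 0.09. Of 6 thionins and defensins 0 passed an unadjusted p under 0.05, with THI2.2 at 0.19 and THI2.1 at -0.22. AT1G66100 differed by 0.22 and AT1G80130 by 0.36.

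For metabolism, the 24 UDP-glycosyltransferases had a median of 0.01 with 3 higher and 2 lower at an unadjusted p under 0.05 (4.1% and 5.06% over all tested probe sets), and UGT72E1, which glucosylates lignin precursors, differed by 0.45. Of 9 glutathione transferases 3 were higher and 1 lower at that level (4.1% and 5.06% over all), with GSTU26 at 0.44 and GSTU25 at -0.77. Without replicate 1, GSTU25 was called (-1.21, limma adjusted p = 0.0431). CYP71B5 (0.41) was higher in all 6 pairs and CYP71B23 was at -0.32, in a list of 9 cytochromes P450 with a median of -0.05. BCAT4, of methionine chain elongation for glucosinolates, differed by 0.24 and UGT74B1 of the same pathway by -0.09. CHIL and UGT78D2 of flavonoid synthesis differed by 0.11 and 0.02. The ATP sulfurylase genes APS3 and APS4 differed by 0.38 and -0.14, and APS3 was higher in all 6 pairs. The sugar transporter genes SWEET13 and SWEET1 differed by 0.36 and 0.29. In their list of 12 sugar and starch genes, SA differences reached 1.78 and silwet differences -1.80, with 0 called. For the difference between treatments 1 of 12 was higher and 1 lower at an unadjusted p under 0.05 (1.91% and 1.41% over all).

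Of growth and housekeeping lists, the 20 cell wall expansion genes had a median of -0.06 with 0 of 20 at an unadjusted p under 0.05, EXPB3 at 0.38 and CSLC6 at -0.34. HTB1 and HTB4, both histone H2B genes, differed by 0.26 and 0.12. The clock gene GI differed by -0.49, with 127, 411 and 419 in the third block of SA, against 533, 445 and 426 in the second, so that most of its SA difference came from array 34. Ubiquitin-conjugating enzymes (10 tested) had a median of 0.11 and autophagy genes (10 tested) 0.10. UBC20 (0.28) was higher in all 6 pairs, and UBC16 (0.26), ATG8F (0.22) and ATG3 (0.14) were not. For vesicle traffic (18 tested, median 0.00), SEC1B was at -0.34 and VPS9B at 0.23. The 3 genes of protein folding in the endoplasmic reticulum had a median of -0.16, and the calreticulin gene CRT1b, at -0.36, was lower in all 6 pairs, with BZIP60 at -0.16. The serine carboxypeptidase-like genes SCPL27 and SCPL49 were at 0.17 and 0.05, the MADS-box genes AGL24 and AGL26 at 0.32 and 0.17, and NAC014 at 0.17. The 8 reference genes had a median of -0.02, with GAPC2 at 0.08 and TUB5 at -0.12. In the SA pair of replicate 1, which holds array 34, their median was -0.50, against 0.00 to 0.10 in the other pairs. That pair had a median of 0.68 for autophagy genes, against -0.12 to 0.10 in the others. For ubiquitin-conjugating enzymes it had 0.35, against -0.16 to 0.13. For all 70 genes named from lists the limma adjusted p lay between 0.374 and 0.98.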

How the data were processed

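The authors deposited MAS5 signal intensity for 22810 probe sets, per the submitters' processing notes. Its version is not stated in these sources. Every column had a 2% trimmed mean of 100.01, so no scaling was added. The 64 controls were left out, and the 13648 of 22746 probe sets at or above the 40th percentile of mean log2 signal (4.33, a signal of 20.1) were tested. Annotation gave 1 gene for 13513 probe sets, several for 503 and none for 8730, and 13436 matched the TAIR10.1 table. Log2 signal was fitted with limma 3.58.1 in R 4.3.3 (lmFit, eBayes with trend, Benjamini-Hochberg). The main model had block, treatment and replicate number as terms and 7 residual degrees of freedom. Differences within SA, within silwet and between treatments came from 1 fit of the same 12 arrays, as 4 groups plus replicate number. Each listed gene was represented by its probe set of highest mean. Named genes were the 12 of smallest p in each direction with 1 sign in 6 of 6 pairs, and from each list up to 4 called or else the 2 of smallest p. Members, lists and rules were chosen with earlier results of these data known. Tested on simulated data (200 of 13648 changed), the main test recovered 45.5%, 86.5% and 98% of 1.5-fold, 2-fold and 4-fold changes; for changes in SA only, the SA test recovered 1.5%, 60.5% and 96%. Precision is limited by how few arrays there are.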

Additional observations from a re-analysis of the deposited data

Results flagged for a closer look

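Of 98 groups of 6 arrays examined for an array far from the others, 2 had one, and chance flags about 1 in 20 groups. AT1G13160 in the third block had array 34 (SA, replicate 1) lowest, at a log2 signal of 4.77 where the nearest array was at 5.37, a gap of 0.78 of the range of the block. WRKY53 in the second block had array 22 (silwet, replicate 1) highest, at 7.5 where the nearest was at 6.55, a gap of 0.712 of the range. The block difference was larger in SA than in silwet, by limma's interaction test, for 244939_at (2.21 log2) and 244940_at (2.05 log2).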

How the results depend on the processing

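Over both treatments the count of calls was 0 to 9 with a replicate number or an array left out and 0 under every other alternative run. Within SA, 7 calls became 3 with no filter on dim probe sets, 13 with a filter at the 60th percentile, 19 with median centring and 1 with no replicate block, and 2 to 20 with a replicate number or an array left out (3 to 4 for replicate numbers). Within silwet the count was 0 under all 21 alternatives. For the difference between treatments, 2 calls became 1 with no filter, 1 with median centring and 0 with no replicate block, and 0 to 2 with replicates or arrays left out. Same-numbered arrays correlated at 0.02 to 0.66 (median 0.28, 14 of 18 pairs above 0.1), so the pairing of numbers was not established, though 11 of 12 arrays correlated best with their own number. Between the replicate numbers themselves, limma called 945 probe sets. With no replicate block the main contrast had 752 probe sets at an unadjusted p under 0.05, against 1250 with it, and still 0 calls by limma. The difference in the ubiquitin ratio was -0.157 to 0.233 and in the GAPDH ratio -0.0406 to 0.0842 with a replicate number left out. Of 98 genes, 16 changed sign somewhere, none of them called. With array weights ARR15 was -0.06, CHIL -0.04, SCPL49 -0.02 and UGT78D2 -0.04, and with quantile normalization SAG101 was 0.00. With replicate numbers or arrays left out, the lowest and highest log2 differences were -0.53 and 0.00 for THI2.1, -0.34 and 0.03 for GRX480, -0.48 and 0.02 for WRKY47, -0.36 and 0.00 for WRKY20, -0.22 and 0.46 for IAA29, -0.03 and 0.67 for GID1C, -0.03 and 0.16 for ARR15, -0.06 and 0.70 for EXPB3, -0.53 and 0.04 for CSLC6, -0.19 and 0.36 for CHIL, -0.20 and 0.21 for UGT78D2, -0.21 and 0.14 for SAG101, -0.02 and 0.11 for SCPL49, -0.26 and 0.05 for TUB5, -0.08 and 0.21 for WRKY53 and -0.26 and 0.11 for COR15A. The cause of these changes was not tested. For probe sets under the filter's signal of 20.1 no result is given.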
